A study of Rattus norvegicus with 6 samples.

Results

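The genes described here are 36 genes of DNA replication and deoxynucleotide supply, taken by gene symbol from a deposited table of 37991 rat genes. Each symbol was found once, and all 36 genes were among the 17797 that passed the filter on low counts. They cover the licensing of replication origins (4 genes), the replicative helicase and its partners (12), the replicative polymerases and primase (6), the sliding clamp with its loader and the joining of Okazaki fragments (6), deoxynucleotide synthesis (5), and a last group of Uhrf1 and the E-type cyclins (3).

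The study compared cultured cells of the oligodendrocyte lineage from SD rats in 2 conditions, with 3 RNA libraries each. The control condition was oligodendrocyte precursors grown in Raff medium before differentiation, and the other was oligodendrocytes after differentiation by a change of growth factors in that medium. Libraries are called precursor 1, 2 and 5 and differentiated 1, 2 and 5 after the numbers in their titles, which place numbers 1 and 2 at day 0 and day 3 and name no day in that form for number 5. No genotype, transgene or drug is named in the labels, which also do not say whether a group's libraries stem from separate cultures or animals. The p-values below therefore cover the spread between these 6 libraries, which may be technical.

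A chromosome is copied once per cell cycle because its origins are prepared in G1 and fired in S phase. The origin recognition complex, Cdc6 and Cdt1 load the ring of Mcm2 to Mcm7 onto DNA, and Cdc45 and the GINS complex then turn that ring into the moving helicase. Polymerase alpha with primase starts each strand, polymerases delta and epsilon extend it on the clamp Pcna, and Fen1 and Lig1 finish the lagging strand, while ribonucleotide reductase, thymidylate synthase and dUTPase supply the building blocks. Most of these genes are known as targets of E2F factors in dividing cells, and precursors of oligodendrocytes are the dividing stage of a lineage whose myelinating cells have left the cell cycle.

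Because E2F factors are known regulators of this gene class, the promoters of the genes were read for E2F-type words: TTTCCCGC, TTTCGCGC, TTTGCCGC and TTTGGCGC, on both strands. RefSeq promoters (GRCr8, 250 bases before to 50 after the start) were found for 30 of the 36 genes, and Orc1, Cdc6, Mcm4, Gins4, Rrm2 and Ccne2 had no entry. At least 1 word was in the promoters of 14 of the 30 genes (46.7%), against 651 of 27457 genes in the whole table (2.37%). In 4 of them, Mcm2, Mcm5, Mcm6 and Gins1, a word on one strand overlapped a word on the other, so that the pair covered 12 bases. That arrangement was looked for after these sequences had been seen, and it was in 5 of the 27457 genes, the fifth being Topbp1, another replication gene. Of 47 other replication genes with a promoter entry, from the list described below, 17 (36.2%) held an E2F-type word. The CCAAT word, read on both strands, was in 18 of the 30 (60%), in 46.8% of those 47 and in 39.6% of the table. These are matches of letters, not measured binding.

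The stretches below show the overlapping pair in those 4 promoters and a single word in Tyms and Pola1, whose calls held whichever library was left out. They are written 5′ to 3′ along the strand of the gene, with E2F-type words in capitals.
Mcm2, chr4:122918095-122918154, minus strand: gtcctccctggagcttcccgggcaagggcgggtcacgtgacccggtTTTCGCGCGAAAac
Mcm5, chr19:13488576-13488635, plus strand: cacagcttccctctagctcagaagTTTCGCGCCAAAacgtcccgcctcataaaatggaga
Mcm6, chr13:42404456-42404515, minus strand: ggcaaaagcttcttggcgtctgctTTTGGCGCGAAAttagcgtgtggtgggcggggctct
Gins1, chr3:160184860-160184919, plus strand: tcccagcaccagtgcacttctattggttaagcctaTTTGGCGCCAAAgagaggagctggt
Tyms, chr9:120776085-120776144, minus strand: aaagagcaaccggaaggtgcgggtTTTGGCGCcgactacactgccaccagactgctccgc
Pola1, chrX:62342492-62342551, minus strand: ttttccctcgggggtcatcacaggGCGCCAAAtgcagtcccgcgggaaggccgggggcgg

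For contrast, the 150 bases before the start are shown for Prim1, with a large change, and Fen1, with the smallest of the 36. Neither promoter held an E2F-type word as searched, which does not make them genes without an E2F site. GTTCCCGC in Prim1 and GTTCGCGC in Fen1 each differ from a searched word in the first base and were not searched for. The Prim1 sequence spans the start, so the stretch below cuts it off.
Prim1, chr7:1031312-1031461, plus strand: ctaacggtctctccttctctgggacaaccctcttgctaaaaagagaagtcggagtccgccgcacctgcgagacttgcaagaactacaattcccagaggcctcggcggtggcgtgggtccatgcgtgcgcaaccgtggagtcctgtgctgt
Fen1, chr1:216274397-216274546, minus strand: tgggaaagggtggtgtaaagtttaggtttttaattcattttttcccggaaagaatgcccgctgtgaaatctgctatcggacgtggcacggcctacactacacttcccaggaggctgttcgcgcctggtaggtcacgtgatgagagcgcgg

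Total counts ran from 55522101 to 79898629 per library, and the 36 genes had between 266 and 34074 reads in any library, and the spread given below includes their counting error. Rn7sl1, a signal recognition particle RNA, made up 24% to 38.7% of a library in TPM, a level per transcript length scaled to a fixed total. Changes are therefore given in CPM, counts scaled to a common library total with TMM factors (a trimmed mean over genes), and TPM is used to rank genes within a library. Markers of the lineage were present in every library: the summed level of Sox10, Olig1 and Olig2 was 499 to 857 CPM in precursors and 647 to 1008 CPM in differentiated libraries. The summed level of 6 myelin genes was 1296 to 2068 CPM and 17410 to 20609 CPM, and 6 of 6 were called higher. Of 5 precursor markers 0 were called, while with the replicate number as a block 3 were higher (Cspg4, Gpr17 and C1ql1) and 1 was lower (Ptprz1).

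Transcripts of DNA replication were lower in differentiated libraries in every role group. Of the 36 genes, 23 fell and 0 rose at an edgeR adjusted p under 0.05, where 3.21% of all tested genes fell and 5.65% rose. The log2 fold change, or log2 change, of differentiated over precursor CPM is given for each gene with its standard error (SE). Its median over the 36 was -0.65, beside -0.038 for all tested genes, and single genes ranged from -1.06 (Ccne2) to -0.11 (Fen1). In CPM, the differentiated mean was between 48.1% and 92.7% of the precursor mean. All 36 were lower in 3 of 3 same-numbered pairs, a pattern seen in 32.0% of tested genes, and in 33 every differentiated library lay below every precursor library, as in 13.8% of tested genes. The exceptions to the latter were Pold1, Pole and Fen1.

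**Figure D1:**
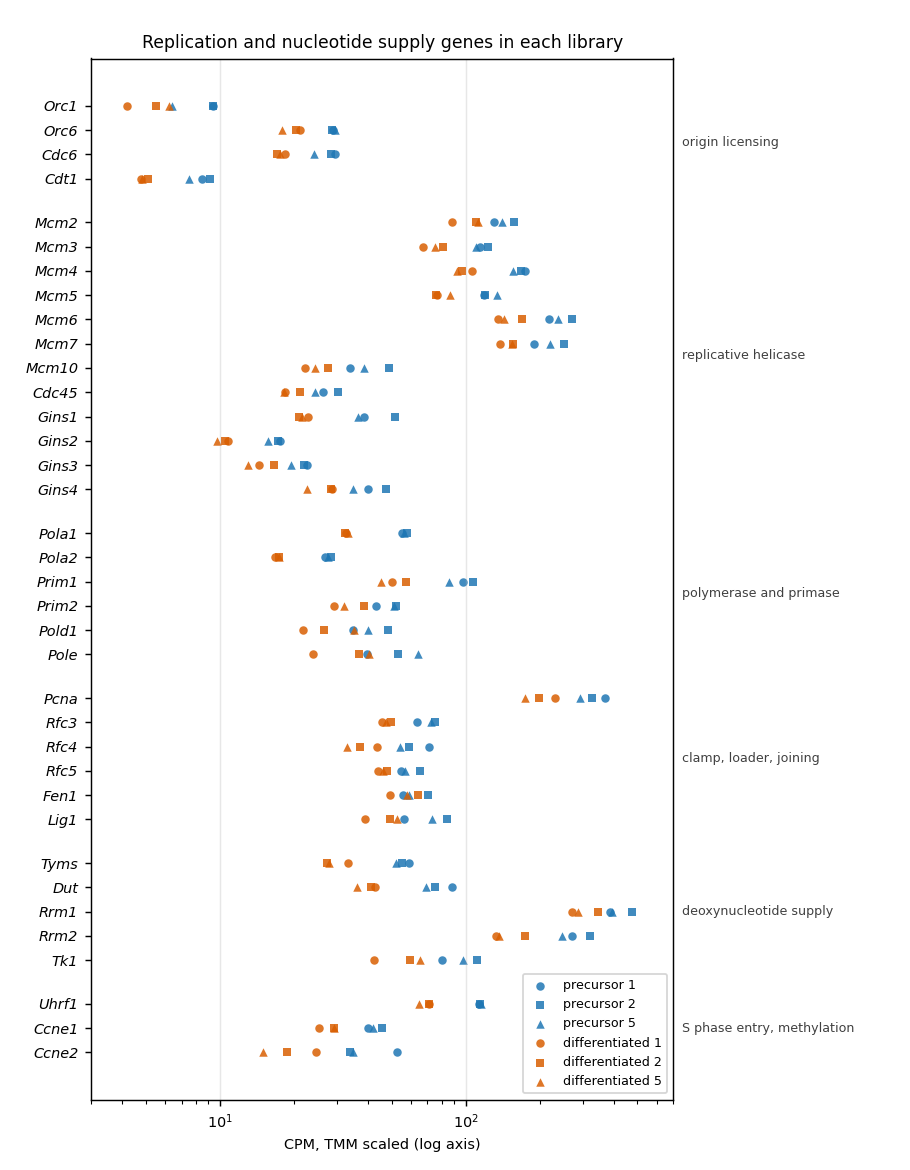
Level of each of the 36 genes in each library, in TMM-scaled CPM on a log axis, with precursor libraries in blue, differentiated libraries in orange, and the library number given by the marker shape. In 33 genes the orange points all lie to the left of the blue points, while those of Pold1, Pole and Fen1 overlap.

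How many of the 36 genes were called depended on the libraries and on the fit, while the direction did not. With the replicate number as a block, 34 fell and 0 rose, at a background of 15.7% lower and 14.9% higher, and the genes outside that count were Orc1 and Fen1 (edgeR adjusted p = 0.0747 and 0.283 with the block). Without both replicate 1 libraries, 28 fell and 0 rose (background 8.11% lower and 8.48% higher). In sum, microglial markers and fibroblast and pericyte markers were highest in the number 1 library of each group. Single markers that were not are Cx3cr1 in precursors and Pdgfrb in differentiated cells. Leaving out 1 library gave 15 lower genes of the 36 without differentiated 1, 8 without differentiated 2 and 7 without differentiated 5. In the same fits 561, 148 and 170 of all genes were lower. The count of the 36 was 19 without precursor 1, 7 without precursor 2 and 12 without precursor 5, beside 535, 160 and 263 of all genes. Mcm4, Pola1, Prim1, Tyms, Dut and Uhrf1 were called lower in each of these 6 fits, and 13 of the 36 genes in none of them. The fold change of each of the 36 genes was negative in every alternative fit. RNA came from whole cultures, so fewer cells in S phase and less RNA per cell cannot be told apart.

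Among the origin licensing genes, 3 of 4 fell (median log2 fold change -0.65). Cdt1 (292071), which brings the helicase ring to the origin, was at 8.5, 9.1 and 7.54 CPM in precursors 1, 2 and 5 and at 4.77, 5.11 and 4.84 CPM in differentiated 1, 2 and 5. The groups did not overlap, and the log2 fold change was -0.77 (SE 0.18, edgeR adjusted p = 0.0398). Orc6 (291927), the smallest subunit of the origin recognition complex and the licensing gene of highest TPM, was at 28.8, 28.7 and 29.5 CPM in precursors and 21.3, 20.4 and 17.9 CPM in differentiated cells. Its precursor libraries were nearly equal and all above the differentiated ones (log2 change -0.55 with SE 0.13, adjusted p = 0.0402 by edgeR). Cdc6 (360621), the ATPase that joins the origin complex to load the ring, fell from 27.4 ± 2.79 to 17.7 ± 0.667 CPM (SD, n = 3). Orc1 (313479), the large subunit whose protein cycles with the cell cycle, was at 9.4, 9.36 and 6.4 CPM and at 4.21, 5.49 and 6.21 CPM. In the pair numbered 5 it differed by only -0.05 on the log2 scale, and it did not pass the test (log2 change -0.66 with SE 0.24, adjusted p = 0.158 by edgeR). Leaving out 1 library left 0 of the 4 called, except that Cdc6 was called without precursor 5.

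Of the 12 helicase genes, 8 fell (median log2 fold change -0.64) and 12 did with the block. Mcm7 (288532), the helicase subunit of highest TPM, was at 190, 251 and 221 CPM in precursors and 138, 156 and 155 CPM in differentiated cells. All 3 differentiated libraries were below the lowest precursor library (log2 change -0.56 with SE 0.13, adjusted p = 0.0401 by edgeR). Mcm2 (312538), the subunit that also binds histones, was at 130, 157 and 141 CPM and at 88.3, 110 and 112 CPM. These did not overlap either, but the change was the smallest of the 12 and did not pass (log2 change -0.46 with SE 0.13, adjusted p = 0.0824 by edgeR, and 0.00385 with the block). Mcm4 (29728) had the most precise change of the ring, from 166 ± 9.14 to 98.4 ± 6.89 CPM (log2 change -0.76 with SE 0.10, adjusted p = 0.00544 by edgeR). The ring subunits Mcm3, Mcm5 and Mcm6 had log2 changes of -0.63, -0.65 and -0.69, and all passed.

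The partners that activate the ring showed a wider range. Gins1 (499914), a subunit of the GINS complex, was at 38.5, 51.6 and 36.7 CPM in precursors and at 22.9, 21 and 21.7 CPM in differentiated cells. Precursor 2 was the highest, and the differentiated libraries lay close together (log2 change -0.95 with SE 0.16, adjusted p = 0.0122 by edgeR). Gins2 (292058) fell by 0.71 on the log2 scale, whereas Gins3 (307639) and Gins4 (290842) were at -0.54 and -0.62 and did not pass (edgeR adjusted p = 0.0784 and 0.06). Mcm10 (307126), which acts when the helicase starts to move, fell from 40.4 ± 7.61 to 24.8 ± 2.72 CPM. Cdc45 (287961), the third part of the active helicase, did not pass with 27.1 ± 3 and 19.3 ± 1.73 CPM (log2 change -0.49, adjusted p = 0.0882 by edgeR, and 0.00745 with the block).

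Mcm2 to Mcm7 form a ring with 1 copy of each protein, and their transcripts were compared per length as shares of their summed TPM. That sum was 315, 431 and 474 TPM in precursors and 176, 237 and 244 TPM in differentiated cells. In CPM, the scale used here for changes, the sum was 946, 1091 and 998 in precursors and 611, 690 and 665 in differentiated cells. Mcm7 held 26.7% ± 1.7 of it in precursors and 27.8% ± 0.3 in differentiated cells (SD, n = 3), and Mcm6 held 23.6% ± 0.764 and 22.6% ± 1.6. Each of the other 4 held less than Mcm6 in every library, with mean shares between 11.2% (Mcm3, differentiated) and 14.1% (Mcm4 in precursors and Mcm2 in differentiated cells). Mcm2 was the only subunit whose shares did not overlap between groups, at 12.4%, 12.8% and 12.8% in precursors and 12.9%, 14.3% and 15.1% in differentiated cells, a gap no wider than the spread in precursors. For the other 5 subunits the shares of the groups overlapped, and no test was made of these shares.

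**Figure D2:**
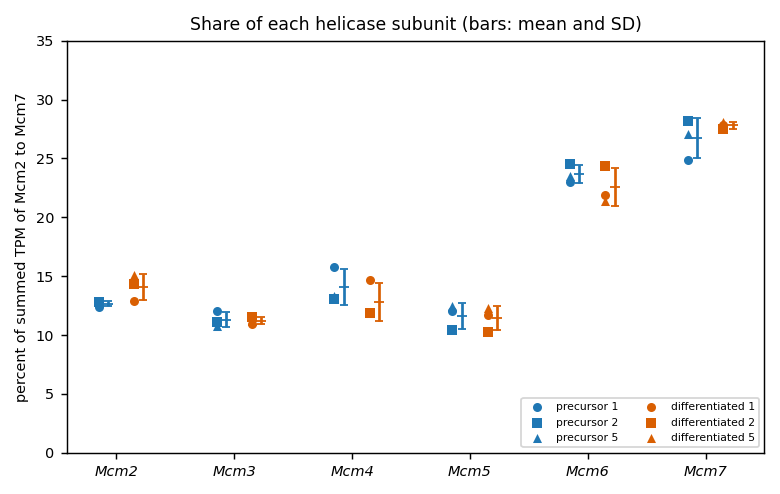
Share of each ring subunit in the summed TPM of Mcm2 to Mcm7, in percent, for each library, with precursor libraries in blue and differentiated libraries in orange and with bars for the mean and SD of each group. Mcm6 and Mcm7 lie above 21% in every library and the other 4 subunits below 16%.

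Among polymerase and primase genes, 3 of 6 fell (median log2 fold change -0.66) and 6 did with the block. Prim1 (246327), the catalytic primase subunit and the gene of highest TPM here, was at 97.4, 107 and 85.3 CPM in precursors and 50.4, 57.4 and 45.4 CPM in differentiated cells. Every differentiated library was far below every precursor library (log2 change -0.92 with SE 0.14, adjusted p = 0.00766 by edgeR). Its partner Prim2 (301323), the regulatory subunit, was at 43.2, 52.1 and 51.3 CPM and at 29.2, 38.7 and 32 CPM, and did not pass (log2 change -0.55 with SE 0.15, adjusted p = 0.0646 by edgeR). Pola1 (85241), the catalytic subunit of polymerase alpha, fell from 56.4 ± 1.41 to 32.8 ± 0.392 CPM, with the lowest edgeR adjusted p of the 36 genes (0.00407). Pola2 (85242) fell from 27.7 ± 0.774 to 17.2 ± 0.34 CPM. The catalytic subunits of the elongating polymerases, Pold1 (59294) and Pole (304573), had similar fold changes of -0.56 and -0.63 but a larger spread. Pold1 was at 34.9, 48.4 and 40.2 CPM and at 21.9, 26.5 and 35.1 CPM, and Pole at 39.7, 52.9 and 63.9 CPM and at 23.9, 36.9 and 40.4 CPM. In both, the highest differentiated library exceeded the lowest precursor library, and neither passed (edgeR adjusted p = 0.157 and 0.178, and 0.0208 and 0.00188 with the block).

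In the clamp, clamp loader and Okazaki fragment group, 3 of 6 fell (median log2 fold change -0.58) and 5 did with the block. Pcna (25737), the sliding clamp and the gene of highest TPM of all 36 in every library, was at 368, 326 and 293 CPM in precursors and 231, 198 and 175 CPM in differentiated cells. The groups were well apart, and same-numbered pairs differed by -0.67, -0.72 and -0.74 on the log2 scale (log2 change -0.71 with SE 0.14, adjusted p = 0.0245 by edgeR). The loader subunits Rfc3 (288414) and Rfc4 (288003) fell from 70.4 to 47.7 and from 61.3 to 38 CPM, and Rfc5 (304528) did not pass with 59 and 46.1 CPM (edgeR adjusted p = 0.115). Lig1 (81513), the ligase that seals Okazaki fragments, was at 71 ± 13.9 and 47 ± 7.09 CPM (log2 change -0.60, adjusted p = 0.0994 by edgeR, and 0.00301 with the block). No call in this group was made without precursor 2, without differentiated 2 or without differentiated 5, and 1 was made without precursor 5.

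Fen1 (84490), the nuclease that trims Okazaki fragment ends, differed from the rest of the 36 in the size of its change. It was at 55.8, 70.1 and 59 CPM in precursors and at 49.2, 64.3 and 57.8 CPM in differentiated cells, so that the groups overlapped. Its log2 fold change was -0.11 (SE 0.15, edgeR adjusted p = 0.723). It was -0.00 without differentiated 1 and -0.01 without precursor 2 (adjusted p = 0.994 and 0.991 by edgeR). The log2 ratio of Fen1 to Lig1, which act in sequence, was -0.01, -0.26 and -0.31 in precursors and 0.34, 0.38 and 0.14 in differentiated cells, without overlap. The log2 ratio of Fen1 to Pcna overlapped between the groups. Both ratios were chosen after the values had been seen and were not tested. In the reference annotation the span of Fen1 overlaps that of Tmem258 (499317), a membrane protein gene, which was at 44.2 ± 3.28 and 43.2 ± 1.57 CPM. Whether reads of Tmem258 enter the Fen1 count was not tested.

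In deoxynucleotide supply 3 of 5 genes fell and 5 did with the block. Its median log2 change of -0.91 was the most negative of the role groups, a difference that was not tested. Dut (497778), the dUTPase that keeps uracil out of DNA and yields the precursor of thymidylate, was at 88.1, 74.9 and 69 CPM in precursors and 42.9, 41.1 and 36.2 CPM in differentiated cells. The highest differentiated library was well below the lowest precursor library (log2 change -0.95 with SE 0.13, adjusted p = 0.00597 by edgeR). Tyms (29261), thymidylate synthase, fell from 55.4 ± 3.49 to 29.5 ± 3.33 CPM (log2 change -0.91 with SE 0.13, adjusted p = 0.00561 by edgeR). Tk1 (24834), the salvage thymidine kinase of S phase, was at 79.9, 111 and 97.7 CPM and at 42.6, 59.7 and 65.3 CPM, just outside the threshold (log2 change -0.78 with SE 0.19, adjusted p = 0.0507 by edgeR, and 0.00124 with the block).

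The subunits of ribonucleotide reductase changed by different amounts. Rrm2 (362720), the small subunit made in S phase, was at 271, 320 and 247 CPM in precursors and 133, 175 and 137 CPM in differentiated cells (log2 change -0.91 with SE 0.15, adjusted p = 0.0128 by edgeR). Rrm1 (685579), the large subunit shared by all forms of the enzyme and the nucleotide gene of highest TPM, was at 386, 476 and 394 CPM and at 272, 344 and 286 CPM. Its groups did not overlap, yet it did not pass (log2 change -0.48 with SE 0.14, adjusted p = 0.0797 by edgeR, and 0.00119 with the block). The log2 ratio of Rrm2 to Rrm1 in CPM was -0.51, -0.57 and -0.67 in precursors and -1.03, -0.97 and -1.06 in differentiated cells. That ratio, also chosen after the values had been seen and not tested, was lower in every differentiated library. Rrm2b (299976), the small subunit used outside S phase, did not pass with 5.16 ± 1.38 and 4.26 ± 0.325 CPM (log2 change -0.28, adjusted p = 0.586 by edgeR). The log2 ratio of Rrm2 to Rrm2b overlapped between the groups.

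All 3 genes of the last group fell (median log2 fold change -0.73). Uhrf1 (316129), which brings the maintenance methyltransferase to new DNA, was at 113, 114 and 116 CPM in precursors and 70.9, 71.3 and 64.5 CPM in differentiated cells. Spread within each group was small, and the edgeR adjusted p was 0.00494 (log2 fold change -0.73, SE 0.10). Ccne2 (362485), an E-type cyclin of the G1 to S transition, had the largest change of the 36 and a wide spread, with 52.8, 34 and 34.8 CPM in precursors and 24.6, 18.8 and 15 CPM in differentiated cells. The number 1 library was the highest of each group (log2 change -1.06 with SE 0.24, adjusted p = 0.0409 by edgeR). Ccne1 (25729), the other E-type cyclin, was at 40.1, 45.7 and 41.9 CPM and at 25.3, 29.1 and 29.3 CPM, without overlap (log2 change -0.61 with SE 0.12, adjusted p = 0.0237 by edgeR). Without precursor 2, precursor 5, differentiated 2 or differentiated 5, Uhrf1 was the 1 gene of this group still called.

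**Figure D3:**
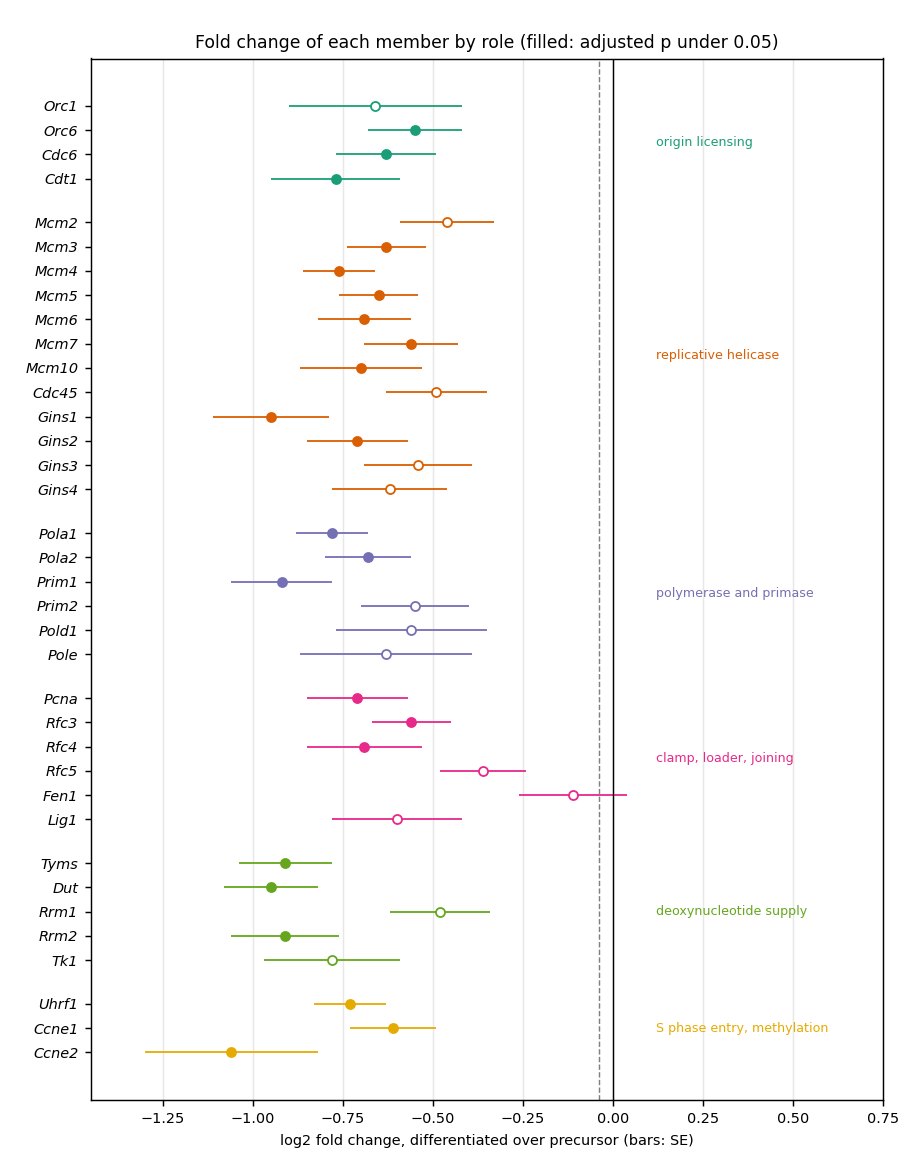
Log2 fold change of each of the 36 genes, differentiated over precursor, with bars for the SE, ordered and coloured by role, filled where the adjusted p was under 0.05. The dashed line marks the median of all tested genes (-0.038), and all points lie to its left, from -1.06 for Ccne2 to -0.11 for Fen1.

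The ends of the order of transcript levels were the same in both conditions. Per length, Pcna was first and Rrm1 second in each of the 6 libraries, and Orc1 was last and Cdt1 next to last in each. Pcna was at 307, 319 and 346 TPM in precursors and 166, 169 and 160 TPM in differentiated cells. Orc1 was at 1.85, 2.14 and 1.73 TPM and at 0.661, 1.03 and 1.35 TPM. TPM serves here for the order within a library, and changes of single genes are those given in CPM above. The middle of the order changed. Rfc5 ranked 18, 16 and 16 in precursors and 11, 11 and 9 in differentiated cells, and Fen1 ranked 20, 19 and 20 and then 16, 12 and 15. Gins1 moved down, from ranks 15, 9 and 15 to 17, 18 and 18. The median TPM of the 36 was 31.3, 37.9 and 43.8 in precursors and 16.8, 19.7 and 20.6 in differentiated cells, beside 4.73, 5.26 and 6.71 and 4.05, 4.53 and 5.03 for all tested genes. Orc1, Cdt1 and Gins2 were below the median of all tested genes in each of the 6 libraries, precursor and differentiated alike.

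Genes with and without 1 of the 4 E2F-type words had similar fold changes. The split covers those words alone and does not separate genes with an E2F site from genes without. TTTGGCGG, for instance, differs from a searched word in its last base and was not searched for. It is in windows of Cdc45, Mcm10, Pola2 and Dut, which count here as genes without a word. The 14 genes with a word had a median log2 fold change of -0.64, between -0.95 and -0.46. The 16 without a word also had a median of -0.64, between -0.95 and -0.11. Fen1 had none of the 4 words and no CCAAT in its window. The same held for the windows of Dut, which was among the genes with the largest change. Topbp1 (315969), which also carries an overlapping pair of words and helps to fire origins, fell from 93.2 ± 6.29 to 64.2 ± 2.95 CPM (log2 change -0.54, adjusted p = 0.022 by edgeR).

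Other genes of replication, listed by textbook role, also tended to be lower but less uniformly. Of 55 such genes 54 were tested, and 14 fell and 0 rose (median log2 fold change -0.49), while with the block 40 fell and 1 rose (Tk2). The count of those that fell was 14 without differentiated 1, 0 without differentiated 2 and 1 without differentiated 5. It was 12 without precursor 1, 1 without precursor 2 and 9 without precursor 5. Of all genes tested, 571 fell with all libraries and 148 to 561 with 1 library left out. In those fits 46 to 49 of the 54 fold changes were negative. Dbf4 (312046) and Cdc7 (360908), the kinase pair that fires licensed origins, fell from 13.2 to 5.74 and from 16.3 to 9.07 CPM. Dscc1 (299933) and Atad5 (303348), parts of alternative clamp loaders, fell, with log2 changes of -1.23 and -1.13. The nucleoside kinase Dck (79127) fell from 27 to 15.2 CPM. Clspn (298534), a fork checkpoint mediator, fell by 0.96 on the log2 scale, and Asf1b (304648), a histone chaperone, fell by 0.92.

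Other replication genes did not pass. Gmnn (291137), the inhibitor of Cdt1, was at 48.4 ± 11.3 and 21.9 ± 6.99 CPM without overlap (log2 change -1.14, adjusted p = 0.0509 by edgeR, and 0.000357 with the block). Pole2 (299112), a subunit of polymerase epsilon, had a log2 change of -0.85 (adjusted p = 0.0754 by edgeR, and 0.0195 with the block). Fold changes near 0 were found for Orc3 (313138, -0.06), Orc5 (362304, 0.15), Mcm9 (499437, 0.08), the mitochondrial polymerase Polg (85472, 0.09), Rnaseh2a (364974, -0.08) and the nucleoside diphosphate kinase Nme1 (191575, 0.04). None of these 6 passed the test. The signs of small values depended on scaling: 6 of the 54 were positive here, 1 on the TPM scale and 2 when scaled by library size alone. Rpa1 (287524), of the single-strand binding complex, and Chaf1a (363333), of chromatin assembly, were at -0.30 and -0.36 and did not pass (edgeR adjusted p = 0.187 and 0.129). Of 4 genes for deoxynucleotide supply outside S phase, 0 were called. Among them the mitochondrial thymidine kinase Tk2 (291824) was at 20.9 ± 2.77 and 28.7 ± 0.747 CPM (log2 change 0.46, adjusted p = 0.0939 by edgeR, and 0.0193 with the block), and Samhd1 (311580), which degrades deoxynucleotides, at 2.99 and 2.05 CPM (log2 change -0.54, adjusted p = 0.37 by edgeR).

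Within protein complexes, the subunits differed in how evenly they changed. The 6 ring subunits lay within 0.29 of each other on the log2 scale, from -0.76 to -0.46. The origin recognition complex spanned 0.81, with Orc1 and Orc6 at -0.66 and -0.55, Orc4 and Orc2 at -0.45 and -0.31, and Orc3 and Orc5 at -0.06 and 0.15. DNA polymerase epsilon spanned 0.69, with Pole2 and Pole at -0.85 and -0.63 and the histone-fold subunits Pole4 and Pole3 at -0.47 and -0.16. In polymerase delta 0 of 4 subunits were called and 3 were with the block, Pold4 at -0.10 being the one outside that count. The log2 ratio of Orc6 to Orc3 was -0.67, -0.78 and -0.64 in precursors and -1.07, -1.20 and -1.28 in differentiated cells, without overlap. That of Orc1 to Orc3 overlapped, at -2.29, -2.39 and -2.84 and at -3.41, -3.09 and -2.81. The ratio of Pole to Pole3 overlapped as well, whereas that of Pole2 to Pole3 did not. Differences between subunits were not tested.

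**Figure D4:**
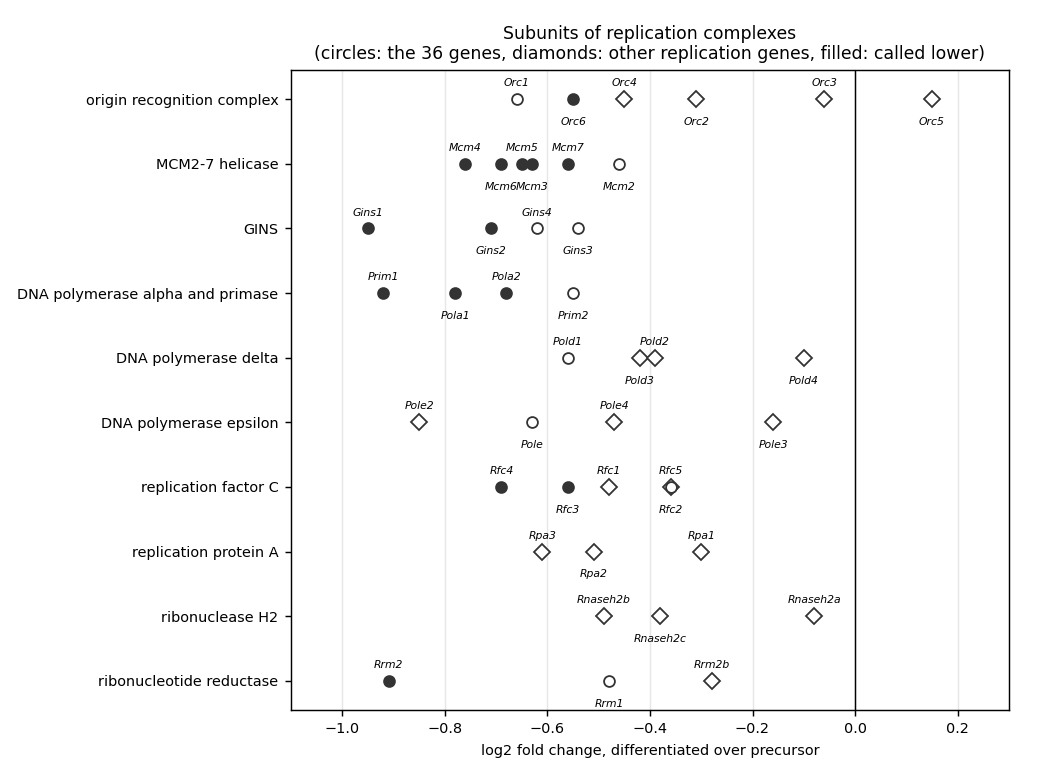
Log2 fold change, differentiated over precursor, of each subunit of 10 replication complexes, with circles for the 36 genes, diamonds for other replication genes, and filled symbols for genes called lower. Ring subunits lie between -0.76 and -0.46, while the origin recognition complex runs from -0.66 (Orc1) to 0.15 (Orc5).

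Some of the counts can be shared with copies or neighbours of these genes. A transcribed pseudogene of Rrm2, LOC100359539, was at 126, 143 and 121 CPM in precursors and 61, 76.7 and 68 CPM in differentiated cells. It fell as well (log2 change -0.93, adjusted p = 0.00527 by edgeR). The pseudogene Dut-ps was at 9.03 and 4.47 CPM (log2 change -1.01, adjusted p = 0.0454 by edgeR), and LOC100911727, described as similar to DNA ligase 1, at 45.2 and 29.9 CPM (log2 change -0.60, adjusted p = 0.128 by edgeR). Reads that match both could have been split between a gene and its copy, so the levels of Rrm2, Dut and Lig1 are uncertain. In the reference annotation the spans of 6 of the 36 genes overlap another protein-coding gene, and strand use in counting is not given in the sources used here. Beside Fen1, Ccne2 overlaps Ints8 (297823, at 74.9 and 69.8 CPM, more than Ccne2 itself) and Gins2 overlaps Gse1 (307913, at 5.8 and 8.09 CPM), whose log2 fold changes of -0.10 and 0.48 did not pass. The other 3 overlaps were of Lig1, Rrm2 and Uhrf1.

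Markers of other cell types were also present in these cultures. Of 6 astrocyte markers 2 were called higher in differentiated libraries (5 with the block), while Slc1a2 had a log2 change of -0.30 and was not called. Their summed level was 3667 to 5273 CPM in precursors and 6555 to 6870 CPM in differentiated cells. Most of that sum was Gfap, at 3195 to 4812 and 5702 to 6114 CPM. Of 7 microglial markers 0 were called (1 lower with the block, Itgam), and their sum was 266 to 650 and 268 to 478 CPM, highest in the number 1 library of each group. Fibroblast and pericyte markers summed to 25.4 to 79.9 and 20.4 to 59.9 CPM, again highest in number 1, with 1 of 5 called higher (Pdgfrb). The log2 changes of the other 4, Col1a1, Col1a2, Dcn and Lum, were -0.63, -0.64, -1.11 and -0.78, and these 4 were called lower with the block. Neuronal markers summed to 28.1 to 48 and 25.3 to 29.9 CPM, with 1 of 5 called lower (Stmn2, and Gad1 too with the block). Schwann cell markers summed to 53.5 to 93.6 and 85 to 138 CPM with 0 of 3 called (2 higher with the block). Endothelial markers were at 0.391 to 1.29 and 0.387 to 0.794 CPM in sum, with Cldn5 at 0 in all libraries. The part of these cells in the level or the change of replication transcripts was not tested.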

How the data were processed

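Per the submitters' processing notes, the authors used Trimmomatic 0.38, StringTie 2.1.3b, HISAT2 2.1.0 and bcl2fastq 2.20.0, with a build named GRCh38, a human assembly, although the genes carry rat identifiers. The rat build, annotation and strand setting were not given in the sources used here. The deposited read counts are whole numbers per gene and were not normalized. The deposited TPM values were scaled per length and to a fixed total by the authors, and the deposited FPKM values were not used. Per the labels' protocols, the RNA came from ISOGEN extraction and the library kit was TruSeq Stranded Total RNA.

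Counts were tested with edgeR 4.0.16 in R 4.3.3 (quasi-likelihood, TMM, filter by expression, robust), differentiated against precursor, 3 against 3, with Benjamini-Hochberg adjustment over 17797 genes and a threshold of 0.05. SE is the log2 fold change over the root of F. DESeq2 1.42.0 and limma 3.58.1, the latter on log2(TPM + 1), were alternatives. Deviations of same-numbered libraries from their group means correlated at 0.376, 0.17 and 0.222 (numbers 1, 2 and 5). Those of different numbers correlated at 0.0957 or less. Same-numbered libraries were treated as pairs only in the block fit and in the comparisons of pairs, although no label says so. The main fit, 3 against 3, was unpaired. The 36 genes and the lists were chosen with earlier results of these data known. Values in each library are given for the gene of highest TPM and of most and least negative change in each role group, a rule fixed with those lists, and for Orc1, Pold1, Pole, Tk1 and Rrm2, which were added after their values were seen. The copies of Rrm2, Dut and Lig1 and the overlapping genes were looked up after the values were seen. Of the other replication genes, those with the most negative and most positive change of each role are named by the rule, except a gene that is not reported here, and further ones, with the ratios and subunit comparisons, were chosen after their values were seen.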

Additional observations from a re-analysis of the deposited data

How the results depend on the processing

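All 468 fold changes of the 36 genes under the alternatives were negative, so the limits concern calls. The cause of the shifts was not tested. The median log2 fold change of the 36 (-0.65) was -0.79 with library size alone and -0.85 by limma on TPM, and between -0.71 and -0.60 with 1 library left out. The count of the 36 that fell (23) was 7 to 19 with 1 library left out, and 0 rose in any fit. By group, these counts were 0 to 1 for origin licensing, 2 to 7 for the helicase, 2 to 3 for polymerases, 0 to 3 for the clamp group, 2 to 4 for deoxynucleotide supply and 1 to 2 for Uhrf1 and the cyclins. With the replicate block the polymerase, clamp and deoxynucleotide counts were 6, 5 and 5. The polymerase count was 5 without both replicate 1 libraries, the licensing count 1 without the filter on low counts, and the deoxynucleotide count 5 with DESeq2. The replicate block brought 11 more of the 36 past the threshold and lost none. For other replication genes, 27 fell with DESeq2, 23 with library size alone, 40 with the replicate block, 27 without both replicate 1 libraries and 0 to 14 with 1 library left out. Of these genes, 1 rose without both replicate 1 libraries, as did 1 with the block and 0 to 1 with 1 library left out. Of all genes (571 lower, 1005 higher), 1198 were lower with DESeq2, 1006 with library size alone, 1000 by limma on TPM, 2797 with the block and 1462 without both replicate 1 libraries. Higher genes numbered 487 by limma on TPM, 2643 with the block and 1529 without both replicate 1 libraries. With 1 library left out, 148 to 561 were lower and 484 to 947 higher. With 2 of the 4 E2F-type words, 13 of the 30 genes held a word (43.3%), beside 0.892% of the promoter table. Of the 47 other replication genes with an entry, 9 held 1 of these 2 words (19.1%), against 17 with all 4 words.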
